A study of Mus musculus with 12 samples.

Results

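The autophagy and mitophagy genes described here were 10 listed symbols, each looked up by name in both count tables, and all 10 were found among the 21976 genes that the tables share. They were Ulk1 and Becn1, which act at the start of autophagy, the 5 ATG8-family genes Gabarap, Gabarapl1, Gabarapl2, Map1lc3a and Map1lc3b, the cargo receptors Sqstm1 and Bnip3, and the lysosomal protease Ctsl. The list was chosen by name with the measured HFD and Chow levels already known, Gabarapl1's difference among them, so diet values are given as a description with no test. For the same reason Gabarapl1 has no test against the HFD libraries in any comparison. The HFD levels of the other 9 genes were among those known, so their tests against HFD are not independent of the choice of the list. Skeletal muscle of C57BL/6N mice gave 3 RNA-seq libraries in each of 4 groups, and the sources used here do not say which muscle. PCN mice ate a high-fat diet and were given 50 mg/kg pregnenolone carbonitrile (PCN, a steroid that activates the rodent pregnane X receptor) by intraperitoneal injection daily over 4 days. Vehicle mice ate the same diet and were injected on the same schedule with the carrier alone, 30% DMSO in corn oil. HFD mice ate the high-fat diet, and Chow mice ate regular chow. Per the labels, diets began at 6 weeks of age and lasted 18 weeks. HFD and Chow libraries share 1 deposited table and PCN and Vehicle libraries the other, so a difference between the tables and an effect of injection cannot be told apart.

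Macroautophagy encloses cytoplasm in a double membrane, the autophagosome, which then fuses with a lysosome. The kinase ULK1 starts the process and a lipid kinase complex built on Beclin-1 follows. Small ubiquitin-like proteins of the ATG8 family, the LC3 and GABARAP proteins, are then attached to the growing membrane. Receptors that bind both a cargo and an ATG8 protein choose what is enclosed, and lysosomal proteases digest it. In muscle, FoxO transcription factors are known to raise many of these genes during fasting and wasting, and mitophagy is the same route applied to mitochondria.

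The sequence just before the annotated gene start is shown for Ulk1, which differed between PCN and HFD, and for Gabarapl1 and Bnip3, which were far apart between PCN libraries. Sequences are from RefSeq on GRCm38.p6, run 5′ to 3′ on the gene's strand, and end at the base before the first base of the gene as annotated in the tables. Capitals mark letters that match the core of the hypoxia response element, ACGTG, on either strand. The Ulk1 stretch lies at chr5:110810098-110810331 on the minus strand, the Gabarapl1 stretch at chr6:129532942-129533159 on the plus strand, and the Bnip3 stretch at chr7:138909520-138909756 on the minus strand.
Ulk1: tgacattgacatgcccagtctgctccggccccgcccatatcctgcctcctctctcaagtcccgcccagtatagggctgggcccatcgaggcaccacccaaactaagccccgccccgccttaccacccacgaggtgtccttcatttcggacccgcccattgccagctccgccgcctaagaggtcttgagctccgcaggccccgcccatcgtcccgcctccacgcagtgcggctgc
Gabarapl1: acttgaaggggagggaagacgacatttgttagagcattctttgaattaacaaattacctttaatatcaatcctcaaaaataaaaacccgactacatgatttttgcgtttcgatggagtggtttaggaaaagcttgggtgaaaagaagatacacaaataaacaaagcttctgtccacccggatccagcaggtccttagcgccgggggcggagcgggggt
Bnip3: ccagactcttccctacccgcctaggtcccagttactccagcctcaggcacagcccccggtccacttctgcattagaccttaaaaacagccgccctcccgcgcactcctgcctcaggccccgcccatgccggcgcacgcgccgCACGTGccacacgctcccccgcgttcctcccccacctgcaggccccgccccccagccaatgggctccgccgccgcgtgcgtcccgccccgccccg
Of the 10 genes, 8 had an entry in the RefSeq promoter table, where a promoter runs from 250 bases before the RefSeq start to 50 bases after it, and Map1lc3a and Becn1 did not. Letters were searched on both strands of that window. The exact letters GTAAACA, a form of the FoxO motif, were found in 0 of the 8, beside 3.65% of 32851 promoters. Other forms of that motif were not searched. The motif TCACGTG, bound by TFEB and its relatives, was also found in 0 of the 8, beside 3.77% of promoters. The shorter ACGTG, which is part of TCACGTG, was found in Bnip3, Ctsl, Gabarap and Gabarapl2, 4 of the 8, beside 19.6% of promoters. In Bnip3, known as a hypoxia target, the palindrome CACGTG holds ACGTG on both strands. A match of letters is not a site, and no match says only that the letters are not in this window.

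Libraries held 14379421 to 19739226 counts in PCN, 16790642 to 17628784 in Vehicle, 14266093 to 17096576 in HFD and 12770308 to 18920359 in Chow. Levels are CPM values after TMM scaling over all 12 libraries. The 10 genes had between 157 counts (Gabarapl2 in HFD 4) and 23318 counts (Sqstm1) in a library. Muscle markers were present in every library, with Ckm at 11356 to 23646 CPM and Des at 2091 to 3247 CPM. The 6 muscle fibre markers summed to 181654 to 262563 CPM in PCN and 183252 to 249034 CPM in Vehicle, against 257086 to 369830 CPM in HFD and 210879 to 282528 CPM in Chow, with Vehicle below all HFD libraries and 2 of 3 PCN libraries below them. Ttn, at 83178 to 242376 CPM, and Myh4, at 30331 to 93396 CPM, hold most of this muscle sum. The other muscle markers, such as Mb at 615 to 3825 CPM, weigh little in it and were not compared singly between groups. The 6 fibroblast markers summed to 272 to 448 CPM in PCN and 330 to 469 CPM in Vehicle, below all HFD libraries at 497 to 888 CPM. The 12 macrophage markers summed to 76.0 to 83.1 CPM in PCN, 59.7 to 103 CPM in Vehicle, 58.4 to 150.2 CPM in HFD and 53.7 to 92.1 CPM in Chow. Adipocyte markers summed to 20.2 to 64.3 CPM in PCN, 37.0 to 163 CPM in Vehicle, 49.0 to 274 CPM in HFD and 7.08 to 177 CPM in Chow. Red blood cell markers summed to 215 CPM in Vehicle 55, without which the most genes passed in Vehicle against HFD, against 45.1 and 74.7 CPM in the other Vehicle libraries. In Chow, slow-fibre markers summed to 39.9 CPM in Chow 8, 654 CPM in Chow 17 and 732 CPM in Chow 19, against 38.6 to 47.8 CPM in HFD. Of the 7 slow-fibre genes listed, 0 were in both count tables, so PCN and Vehicle have no sum to set beside these. What these differences contribute to the values below was not tested, and in whole muscle fewer cells of a type and less RNA per cell cannot be told apart.

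Per kilobase of merged exons, averaged over all 12 libraries, the level was 163 CPM per kb for Sqstm1 and 86.4 CPM per kb for Bnip3. Of the ATG8 genes, Map1lc3a stood at 54.2, Gabarap at 42.0, Gabarapl1 at 32.6, Map1lc3b at 13.6 and Gabarapl2 at 6.31 CPM per kb. Ctsl stood at 11.7, Ulk1 at 8.21 and Becn1 at 6.44 CPM per kb. The cargo receptors were thus the most abundant of the 10 by this measure. The merged length counts the exons of all annotated transcripts, such as 7.52 kb for Map1lc3b and 2.01 kb for Gabarapl1. Which transcripts were present was not measured, so the order of the genes depends in part on the annotation. Before division by length, mean Map1lc3b was above mean Gabarapl1 in PCN, Vehicle and HFD and below it in Chow.

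**Figure D1:**
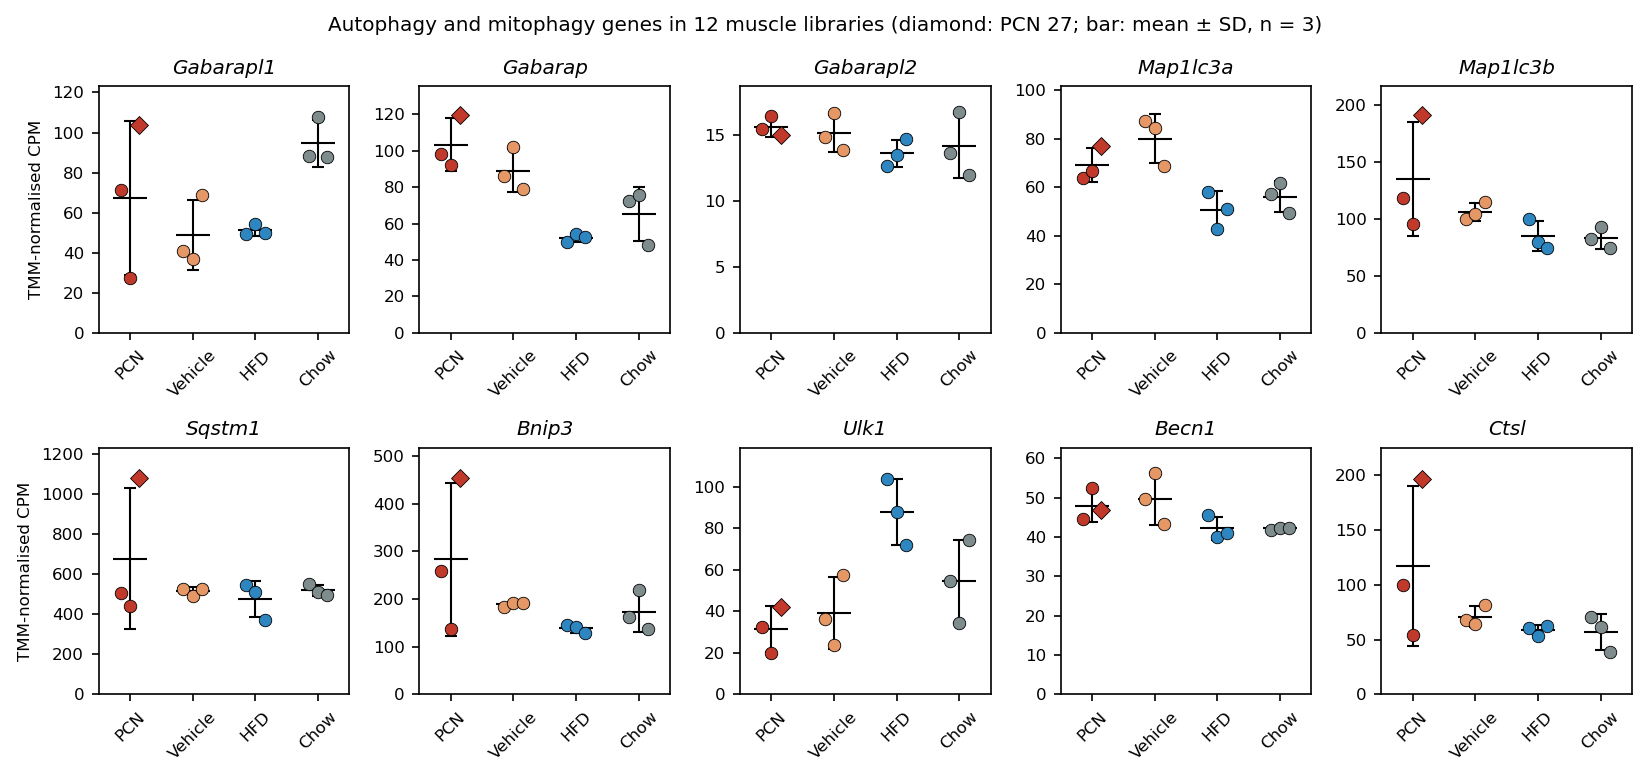
Level of each of the 10 genes in CPM (y axes, from 0) in the PCN, Vehicle, HFD and Chow groups, 1 point per library, with the mean ± SD of 3 libraries. Ulk1 was highest in HFD, Gabarap lay above HFD in all 6 injected libraries, and the library PCN 27 (diamond) was the highest point for Gabarap, Map1lc3b, Sqstm1, Bnip3 and Ctsl.

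Among the genes that start autophagy, Ulk1 varied by group and Becn1 varied little. Ulk1, the initiating kinase (chr5:110784488-110810097), was at 32.3, 19.8 and 42.0 CPM in PCN, 36.2, 23.8 and 57.7 CPM in Vehicle, 104, 87.8 and 72.2 CPM in HFD, and 54.9, 34.4 and 74.2 CPM in Chow. All 6 injected libraries lay below all 3 HFD libraries, while HFD and Chow overlapped. Ulk1 fell in PCN relative to HFD, with means of 31.4 ± 11.1 and 87.9 ± 15.7 CPM (SD, n = 3 each) and a log2 fold change of -1.48 ± 0.27 (SE; edgeR adjusted p = 0.0278). Vehicle averaged 39.2 ± 17.1 CPM, and its difference from HFD, -1.16 ± 0.32, did not pass (adjusted p = 0.125). In HFD the fitted difference from Chow, at 54.5 ± 19.9 CPM, was 0.70 ± 0.27, given with no test. In mean level the order was HFD, Chow, Vehicle and PCN, and of these neighbours none were separated without overlap. Becn1, which encodes Beclin-1 of the lipid kinase complex (chr11:101285952-101302286), was at 44.6, 52.5 and 46.9 CPM in PCN, 49.6, 56.2 and 43.2 CPM in Vehicle, 45.6, 40.0 and 41.0 CPM in HFD, and 41.9, 42.2 and 42.4 CPM in Chow. Its groups overlapped in each of the 3 comparisons of PCN, Vehicle and HFD and in that of HFD with Chow. The fitted differences of Becn1 lay between -0.05 (PCN against Vehicle) and 0.23 (Vehicle against HFD), and none passed.

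Of the ATG8 genes tested against HFD, Gabarap alone passed with edgeR, and it rose in both injected groups. Map1lc3a, Map1lc3b and Gabarapl2 were also fitted higher than HFD in both. The differences of Map1lc3b were 0.32 ± 0.14 in Vehicle and 0.67 ± 0.26 in PCN. Those of Gabarapl2 were 0.15 ± 0.14 and 0.20 ± 0.15. Gabarapl1, given with no test, was not higher than HFD in Vehicle. Gabarap (chr11:69991143-69994951) was at 98.4, 92.1 and 120 CPM in PCN, 86.0, 102 and 79.0 CPM in Vehicle, 49.7, 54.1 and 52.8 CPM in HFD, and 72.1, 75.6 and 48.4 CPM in Chow. Every injected library lay above every HFD library, as for 7.39% of genes, and above every Chow library. The share of genes above both HFD and Chow was not computed, and this split is also that between the deposited tables. Gabarap rose in PCN relative to HFD, averaging 103 ± 14.4 and 52.2 ± 2.27 CPM, with a log2 fold change of 0.99 ± 0.16 (edgeR adjusted p = 0.0263). It also rose in Vehicle, at 88.9 ± 11.7 CPM, by 0.77 ± 0.13 (adjusted p = 0.0344). PCN and Vehicle overlapped, and their difference of 0.22 ± 0.18 did not pass (adjusted p = 0.998).

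Gabarapl1 (chr6:129533160-129542346) had another order. It was at 71.2, 27.3 and 104 CPM in PCN, 40.7, 36.9 and 69.0 CPM in Vehicle, 49.5, 54.3 and 49.9 CPM in HFD, and 88.3, 108 and 87.6 CPM in Chow. All HFD libraries were below all Chow libraries, and the PCN libraries spanned from the lowest to nearly the highest value of the 12. The fitted difference was -0.87 ± 0.13 for HFD against Chow (51.2 ± 2.66 and 94.8 ± 11.8 CPM), -0.07 ± 0.22 for Vehicle against HFD and 0.41 ± 0.42 for PCN against HFD, all 3 given with no test. It was -0.78 with Chow 17 and Chow 19, the libraries high in slow-fibre markers, left out. PCN averaged 67.6 ± 38.6 CPM and Vehicle 48.9 ± 17.5 CPM, a difference of 0.47 ± 0.48 (edgeR adjusted p = 0.998) that was 0.02 without PCN 27.

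Map1lc3a (chr2:155276297-155278073), an LC3 gene, was at 63.7, 66.7 and 77.0 CPM in PCN, 87.3, 84.5 and 68.7 CPM in Vehicle, 58.3, 42.7 and 50.9 CPM in HFD, and 57.1, 62.0 and 49.4 CPM in Chow. As with Gabarap, each injected library lay above each HFD library (beside 7.39% of genes) and each Chow library (share not computed). Neither difference from HFD passed with edgeR. These were 0.46 ± 0.17 in PCN (edgeR adjusted p = 0.164) and 0.66 ± 0.15 in Vehicle (adjusted p = 0.0621). Map1lc3b (chr8:121590361-121598760), whose protein is the usual marker of autophagosomes, was at 118, 95.6 and 191 CPM in PCN, 99.9, 104 and 115 CPM in Vehicle, 100, 80.1 and 74.6 CPM in HFD, and 82.7, 92.6 and 74.2 CPM in Chow. Only PCN 27 stood clear of the other libraries. Gabarapl2 (chr8:111940703-111953612) had group means of 15.7 ± 0.728 CPM in PCN, 15.2 ± 1.43 CPM in Vehicle, 13.6 ± 1.02 CPM in HFD and 14.2 ± 2.44 CPM in Chow. The PCN libraries of Gabarapl2, at 15.0 to 16.5 CPM, lay just above the HFD libraries, at 12.7 to 14.7 CPM, and the difference of 0.20 ± 0.15 did not pass (edgeR adjusted p = 0.477). Of the 10 genes, 6 overlap another annotated gene, and the sources used here do not give the strand setting of the counting, so shared reads cannot be told apart. On the same strand lie Gm20388 with Map1lc3b, Gm44243 with Gabarapl1 and the pseudogene Gm49230 with Ctsl. On the opposite strand only lie Mrnip with Sqstm1, Cntd1 with Becn1, and Gm45507 and Gm18258 with Bnip3.

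The receptors and the protease were uneven within PCN. Sqstm1 (chr11:50199366-50210827), which encodes the ubiquitin-binding receptor p62, was at 508, 442 and 1083 CPM in PCN, 525, 493 and 527 CPM in Vehicle, 544, 512 and 373 CPM in HFD, and 549, 512 and 497 CPM in Chow. Apart from 1083 CPM in PCN 27, the groups overlapped. The difference of PCN (678 ± 352 CPM) from Vehicle (515 ± 18.9 CPM) was 0.40 ± 0.32 (edgeR adjusted p = 0.998), and it was -0.11 without PCN 27. Bnip3 (chr7:138890836-138909519), a receptor on the outer mitochondrial membrane that links mitochondria to ATG8 proteins, was at 258, 137 and 454 CPM in PCN, 184, 191 and 192 CPM in Vehicle, 145, 142 and 128 CPM in HFD, and 162, 219 and 137 CPM in Chow. The Vehicle libraries agreed closely and lay above HFD, whereas PCN 11 lay within HFD and PCN 27 above every other library. Bnip3 differed from HFD by 1.04 ± 0.38 in PCN (adjusted p = 0.180) and by 0.45 ± 0.13 in Vehicle (adjusted p = 0.102). Ctsl (chr13:64359337-64370890), the cysteine protease cathepsin L, was at 100, 54.1 and 197 CPM in PCN, 67.9, 63.8 and 81.4 CPM in Vehicle, 60.3, 52.9 and 62.4 CPM in HFD, and 70.5, 61.9 and 39.1 CPM in Chow. Vehicle lay above HFD by a small gap, and PCN 11 again lay among the HFD libraries. Ctsl differed from HFD by 1.01 ± 0.42 in PCN (adjusted p = 0.234) and by 0.28 ± 0.14 in Vehicle (adjusted p = 0.323).

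**Figure D2:**
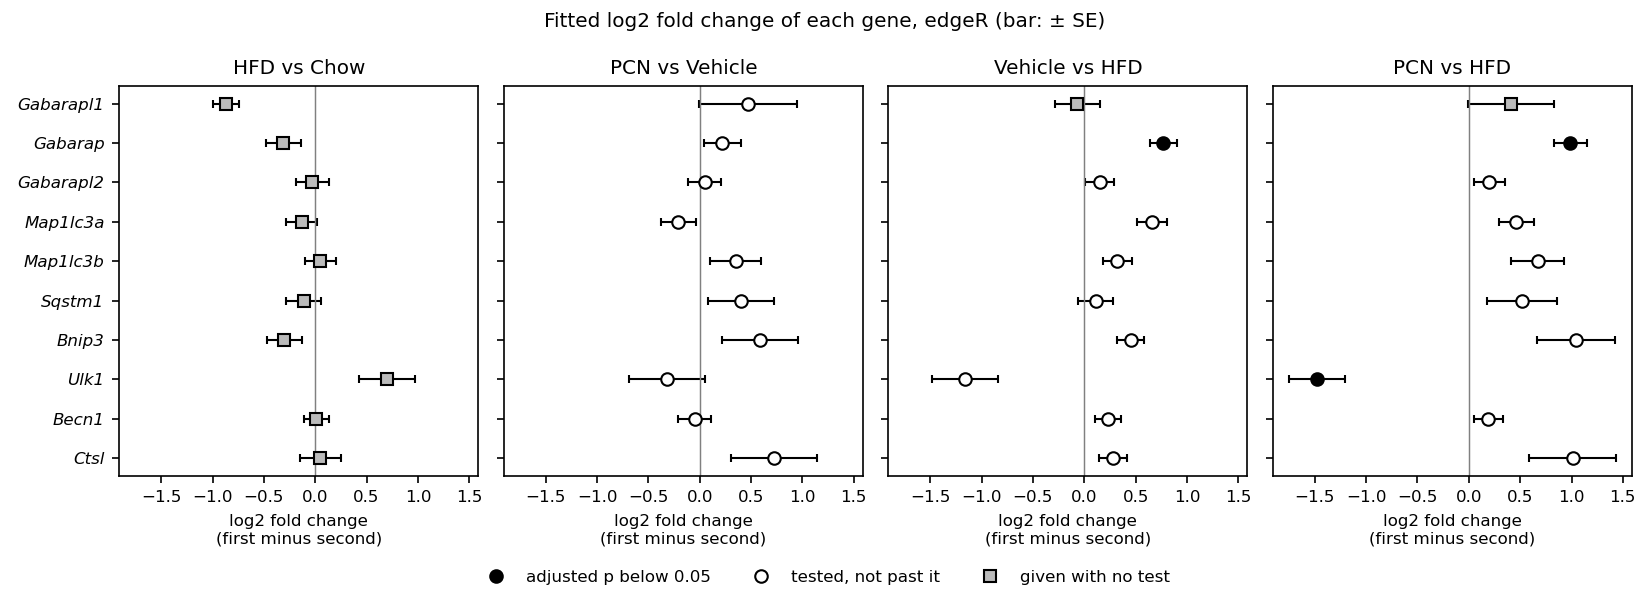
Log2 fold change (x axis, first-named group minus second, ± SE) of each gene in the 4 comparisons, fitted with edgeR. Filled circles passed the adjusted threshold of 0.05, open circles did not, and grey squares are given with no test: Gabarap passed against HFD in PCN and in Vehicle, and Ulk1 in PCN.

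Set side by side, PCN against Vehicle addresses the compound itself, and no member passed there. Of 12833 genes tested, 0 passed edgeR's threshold of 0.05 (0%), and so did 0 of the 10 members, with 0 by DESeq2 as well. At an unadjusted p under 0.05 there were 362 genes (2.82%) and 0 members. Between PCN and Vehicle 0 members had groups that did not overlap, beside 8.40% of genes (4.21% higher and 4.19% lower). The members' median log2 fold change was 0.28, with 7 higher and 3 lower, beside 0.01 over all genes. That median rested on PCN 27, since without it the median was 0.01, with 6 higher and 4 lower, and without PCN 11 it was 0.42. The interval is wide for the genes that were uneven in PCN, so a p that misses the threshold does not show that PCN and Vehicle are alike.

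Against HFD, the injected groups were set apart at some of the genes. In PCN, 2 of the 9 members tested passed edgeR's threshold, Gabarap higher and Ulk1 lower, beside 2.94% of 12686 genes (1.30% higher and 1.64% lower). In Vehicle, 1 of the 9 passed, Gabarap, beside 1.51% of 12746 genes (0.526% higher and 0.989% lower). With DESeq2, 4 members passed in Vehicle, namely Gabarap, Map1lc3a, Bnip3 and Ulk1, beside 6.50% of the 9035 genes given an adjusted p. In PCN 3 passed, namely Gabarap, Bnip3 and Ulk1, beside 8.20% of 9890 such genes. At an unadjusted p under 0.05 there were 6 of the 9 members in PCN, beside 20.7% of genes, and 5 of the 9 in Vehicle, beside 17.8%. In PCN 4 members did not overlap HFD, with Gabarap, Gabarapl2 and Map1lc3a higher and Ulk1 lower, beside 27.0% of genes (13.9% higher and 13.1% lower). In Vehicle 5 members did not overlap HFD, with Gabarap, Map1lc3a, Bnip3 and Ctsl higher and Ulk1 lower, beside 23.4% of genes (12.1% higher and 11.3% lower). Over the 6 injected libraries together, Gabarap and Map1lc3a lay above all 3 HFD libraries, as did 7.39% of genes, and Ulk1 lay below them, as did 7.07%, or 14.5% of genes on either side. The members' median was 0.49 in PCN, with 9 higher and 1 lower, and 0.26 in Vehicle, with 8 higher and 2 lower, beside 0.01 and -0.001 over all genes. In PCN the median was 0.28 without PCN 27, with 7 higher and 3 lower, and 0.80 without PCN 11, while in Vehicle it stayed between 0.21 and 0.30 with any 1 library left out. The 2 comparisons share the HFD libraries. The calls depended on single libraries more than the fold changes did. Without any 1 of the HFD libraries, Gabarap (0.98 to 1.04) and Ulk1 (-1.60 to -1.32) lost their calls in PCN (adjusted p = 0.0889 to 0.160). Gabarap kept its call in Vehicle only without Vehicle 55 (adjusted p = 0.00322, against 0.0700 to 0.180 without another library) and lost it with all 12 libraries in 1 fit (0.77, adjusted p = 0.206). Without PCN 11, Bnip3 (1.40, adjusted p = 0.0250) and Ctsl (1.39, adjusted p = 0.0348) passed in PCN, and without PCN 27 they fitted at 0.52 (adjusted p = 0.330) for Bnip3 and 0.40 (adjusted p = 0.436) for Ctsl.

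For HFD against Chow, the groups of 1 member, Gabarapl1, did not overlap, beside 12.8% of genes (5.76% higher and 7.07% lower), and since these levels were known when the list was chosen, nothing is read from it. The median of the 10 was -0.07, with 4 higher and 6 lower, beside 0.0004 over all genes, and ran from -0.16 (without Chow 19) to -0.02 (without HFD 30) with 1 library left out. Of 12686 genes 0 passed edgeR's threshold (0%), and 977 had an unadjusted p under 0.05 (7.70%). With DESeq2, 44 of the 12882 genes given an adjusted p passed (0.342%). Besides Gabarapl1 and Ulk1, the fitted differences ran from -0.31 (Gabarap) to 0.05 (Map1lc3b and Ctsl).

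**Figure D3:**
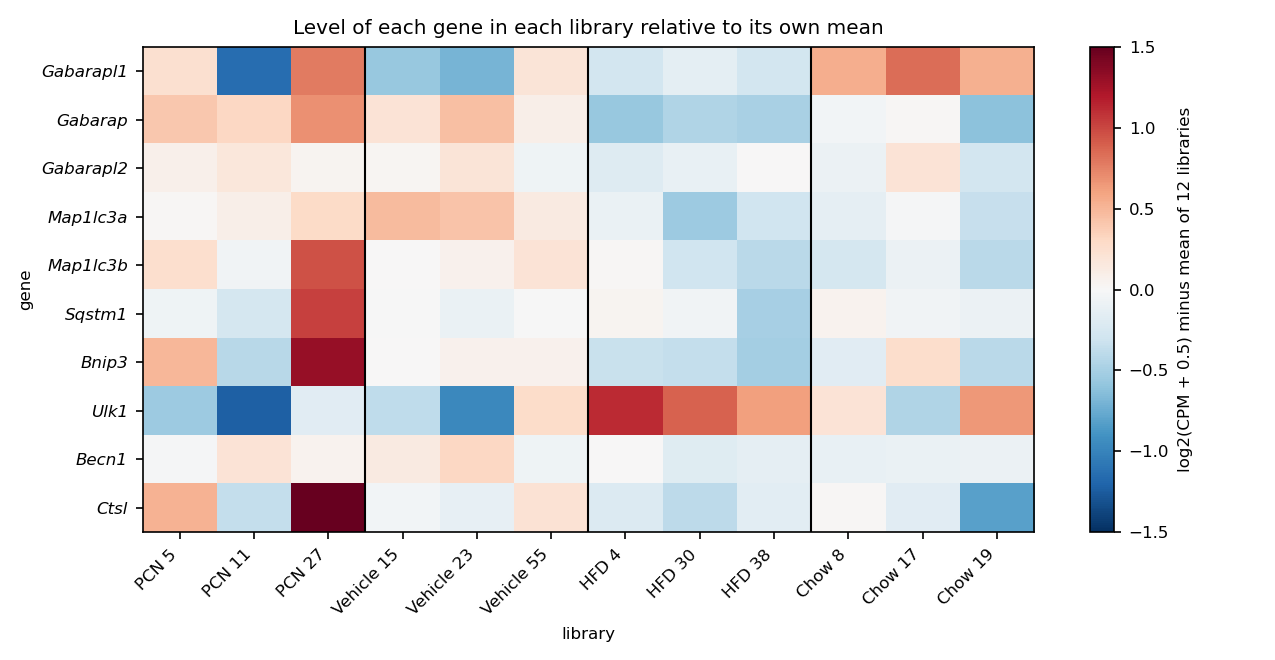
Log2(CPM + 0.5) of each gene (lines) in each library (columns), minus the gene's mean over the 12 libraries (colour scale). PCN 27 is high for Ctsl, Bnip3, Sqstm1, Map1lc3b and Gabarapl1, PCN 11 is low for Ulk1 and Gabarapl1, and the HFD libraries are high for Ulk1.

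PCN 27 was singled out after its values were seen, so its values are a description. It held at least 2 times the CPM of PCN 11 for 6 of the 10 genes, beside 5.32% of 13375 genes. The ratio was 3.82 for Gabarapl1, 3.64 for Ctsl, 3.32 for Bnip3, 2.45 for Sqstm1, 2.12 for Ulk1 and 2.0 for Map1lc3b. It was 1.30 for Gabarap, 1.15 for Map1lc3a, 0.914 for Gabarapl2 and 0.893 for Becn1. Against PCN 5, only Sqstm1 reached 2 times (2.13), 1 of the 10 beside 3.84% of genes, so the count depended on which library PCN 27 was set against. Over PCN 5 the ratio was 1.97 for Ctsl, 1.76 for Bnip3, 1.63 for Map1lc3b, 1.46 for Gabarapl1 and 1.30 for Ulk1. For Gabarapl1 and Ulk1 the low value was that of PCN 11, with PCN 5 at 2.61 and 1.63 times it. PCN 11 was also below PCN 5 for Bnip3 and Ctsl, with PCN 5 at 1.89 and 1.85 times it. For Map1lc3b and Sqstm1, PCN 5 was at 1.23 and 1.15 times PCN 11. Map1lc3b, Sqstm1, Bnip3 and Ctsl were at least 1.5 times as high in PCN 27 as in every other library, 4 of 10 members beside 1.68% of genes, while each of the 11 other libraries had 0 such members. Within Vehicle and within Chow, Ulk1 was the only member whose highest library reached 2 times its lowest, at 2.42 times in Vehicle (beside 17.3% of genes) and 2.16 times in Chow (17.0%), and within HFD 0 members did (16.1%). Within PCN 6 members did, beside 23.0% of genes. Fbxo32, a ubiquitin ligase raised in muscle wasting, was at 791, 503 and 3092 CPM in PCN, 896, 617 and 805 CPM in Vehicle, 1385, 920 and 576 CPM in HFD, and 1270.0, 716 and 735 CPM in Chow, highest in PCN 27. Trim63, another such ligase, was at 287, 345 and 1283 CPM in PCN, 607, 413 and 284 CPM in Vehicle, 1209.7, 782 and 532 CPM in HFD, and 1312, 529.6 and 582 CPM in Chow, so Chow 8 was above PCN 27. Macrophage markers summed to 83.1 CPM in PCN 27 and 76.0 CPM in both other PCN libraries, close to each other, and PCN 27 had the deepest library of the 12. Whether depth has a part in these values was not tested.

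**Figure D4:**
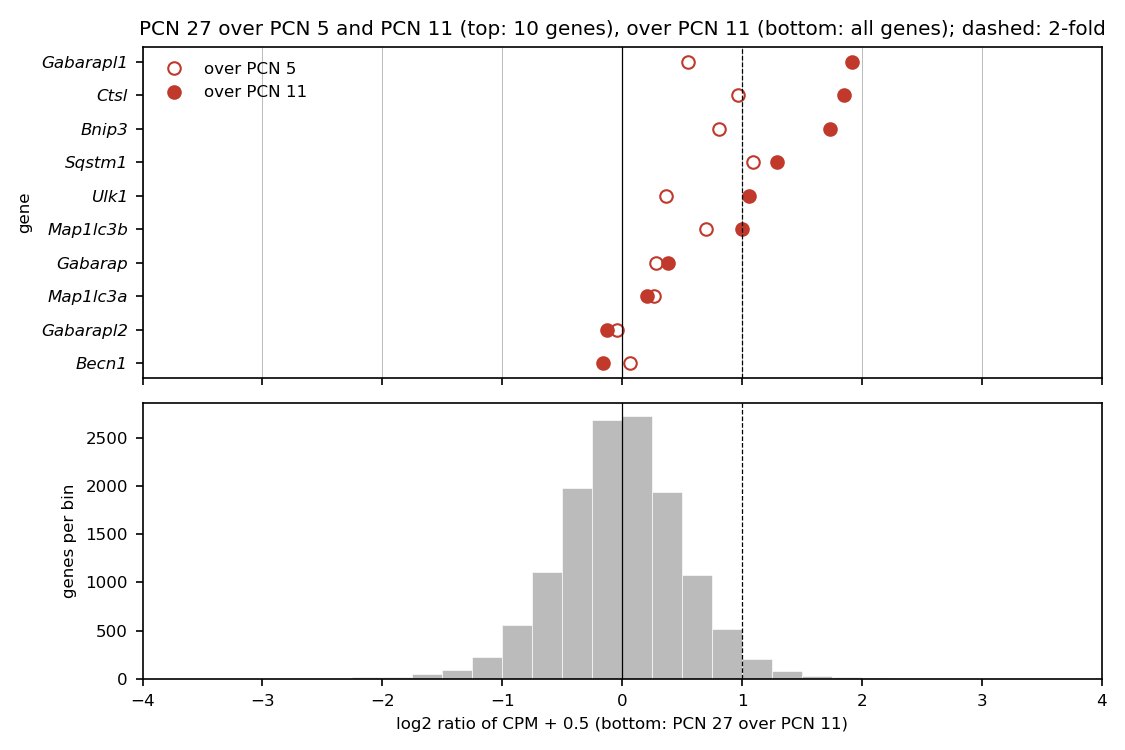
Log2 ratio of CPM + 0.5 (x axis) in PCN 27 over PCN 5 (open) and over PCN 11 (filled) for the 10 genes (top), and the number of genes per bin of the ratio over PCN 11 for all 13375 genes (bottom, y axis). Dashed lines mark 2-fold, which 6 of the 10 genes reached over PCN 11 and 1 over PCN 5.

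A wider list of 84 other autophagy and lysosome genes was measured in full in all 4 comparisons. Of these, 0 passed in HFD against Chow and 0 in PCN against Vehicle, 2 passed in PCN against HFD (beside 2.94% of all genes) and 3 in Vehicle against HFD (beside 1.51%). In PCN against HFD, Phb2, an inner mitochondrial membrane protein that can act as a mitophagy receptor, rose to 91.3 ± 7.92 CPM, against 57.6 ± 2.57 CPM in HFD (0.67 ± 0.15, edgeR adjusted p = 0.0424). Vehicle, at 80.0 ± 9.62 CPM, did not overlap HFD for Phb2 either (0.47 ± 0.13, edgeR adjusted p = 0.0976, DESeq2 adjusted p = 0.0343). Between PCN and Vehicle the Phb2 groups overlapped (0.19 ± 0.16, edgeR adjusted p = 0.998). Foxo1, a transcription factor of the fasting response, was at 30.6, 36.1 and 18.9 CPM in PCN, 35.1, 29.8 and 43.2 CPM in Vehicle, 89.4, 69.1 and 62.8 CPM in HFD, and 36.5, 28.4 and 59.7 CPM in Chow. Like Ulk1 and 7.07% of genes, it was below HFD in all 6 injected libraries. Foxo1 fell by 1.37 ± 0.24 on the log2 scale in PCN (adjusted p = 0.0278) and by 1.03 ± 0.17 in Vehicle (adjusted p = 0.0344). In Vehicle 2 more genes fell, Trp53inp2, which binds ATG8 proteins (-1.02 ± 0.20, adjusted p = 0.0424), and Tbc1d15, a Rab GTPase-activating protein active in mitophagy (-0.77 ± 0.16, adjusted p = 0.0499). In PCN, Trp53inp2 differed from HFD by -1.44 ± 0.37 (edgeR adjusted p = 0.0801, DESeq2 adjusted p = 7.16e-04) and Tbc1d15 by -0.63 ± 0.21 (edgeR adjusted p = 0.141), and neither overlapped HFD. These calls were mostly lost with 1 library left out at a time. Phb2, Trp53inp2 and Tbc1d15 each kept theirs in 1 of 6 fits, and Foxo1 in 3 of 6 in PCN and 2 of 6 in Vehicle. Fold changes in those fits kept their directions, at 0.63 to 0.77 for Phb2 in PCN and -1.55 to -1.14 for Foxo1 in PCN. In Vehicle they were -1.18 to -0.87 for Foxo1, -1.27 to -0.89 for Trp53inp2 and -0.91 to -0.63 for Tbc1d15. The 15 regulators had a median of -0.48 in PCN (1 higher, 14 lower) and -0.30 in Vehicle (4 higher, 11 lower), while the medians of all 84 were 0.06 and -0.02. The regulators include genes that promote autophagy and genes that restrain it, so their median gives no direction for autophagy. The 1 higher in PCN was Tfeb, at 0.34 ± 0.18 (edgeR adjusted p = 0.318), and it was at 0.34 ± 0.13 in Vehicle (edgeR adjusted p = 0.214). Without PCN 27 the PCN median was -0.60 for the regulators and -0.04 for all 84. The 8 lysosomal proteases had a median of 0.28 in PCN, with 7 higher and 1 lower (0.17 without PCN 5, 0.45 without HFD 38), and none of them passed. Of the mitophagy genes near Bnip3 in function, its paralogue Bnip3l differed from HFD by 0.47 ± 0.15 in PCN (adjusted p = 0.117) and 0.34 ± 0.12 in Vehicle (adjusted p = 0.170). The list's 10 mitophagy genes did not all go the same way. Their median was 0.21 in PCN (7 higher, 3 lower) and 0.17 in Vehicle (6 higher, 4 lower). In the wider list PCN 27 was the highest of the 12 libraries for 30 of the 84 genes, beside 18.0% of all genes, and for 5 of the 10 members. By size, 2 of the 84, Epg5 and Sesn1, reached 2 times PCN 11, and 0 of the 84 were 1.5 times above every other library.

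**Figure D5:**
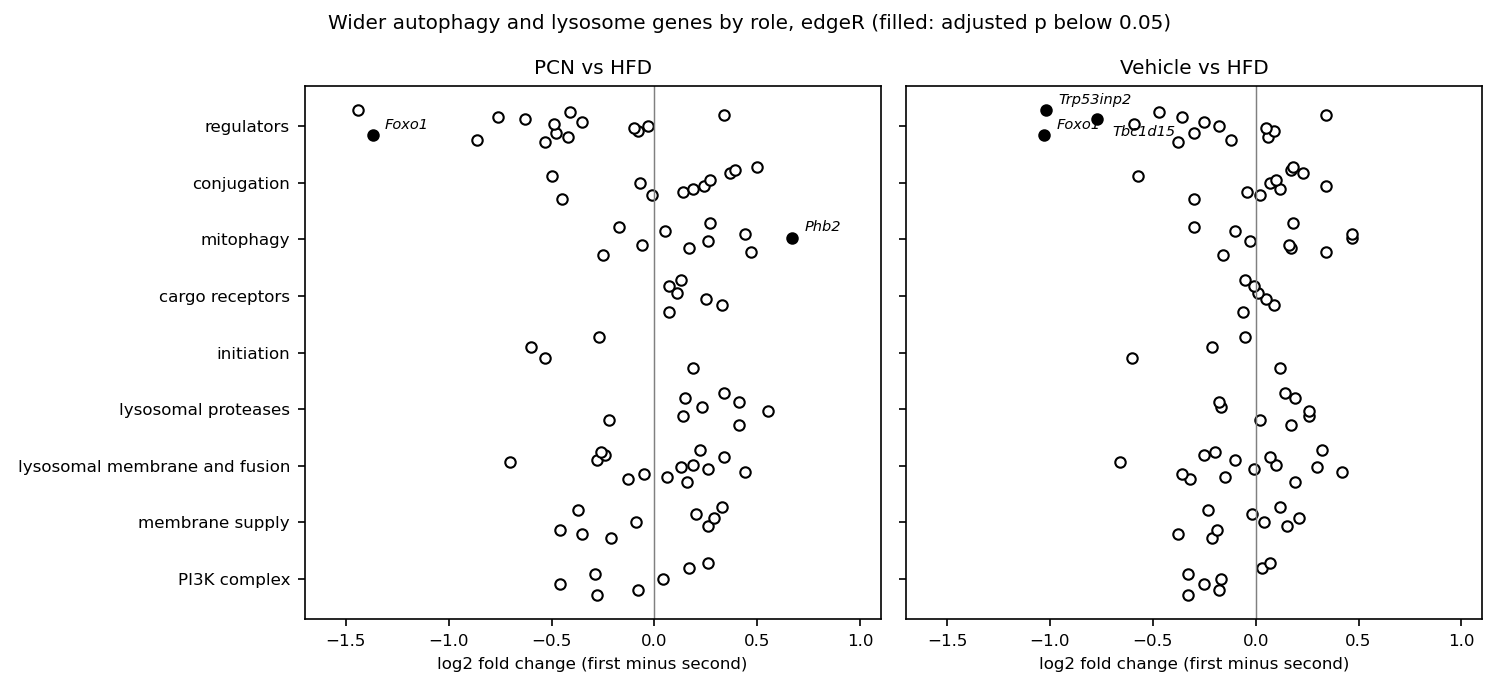
Log2 fold change (x axis) of each of the 84 wider genes by role (y axis) in PCN against HFD and Vehicle against HFD, 1 point per gene, filled where edgeR's adjusted p was below 0.05. Regulators lie mostly left of 0, with Foxo1 filled in both panels and Phb2 filled at the right in PCN.

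The genes whose levels across the 12 libraries were most like those of Gabarapl1 were taken by the smallest root mean square difference between log2(CPM + 0.5) profiles, each centred on its own mean, among 10836 genes with a mean of at least 1 CPM. They were Twf2 (0.19), Retreg1 (0.26), Nuak1 (0.29), Lrrc2 (0.29), Pnpla2 (0.29) and Pdp2 (0.30), beside a median of 0.65 over all genes compared. Retreg1 encodes a receptor for autophagy of the endoplasmic reticulum and Pnpla2 the adipose triglyceride lipase. Retreg1 was at 366, 208 and 747 CPM in PCN, 259, 293 and 384 CPM in Vehicle, 374, 335 and 259 CPM in HFD, and 622, 541 and 409 CPM in Chow. Like Gabarapl1, it was low in PCN 11 and lower in HFD than in Chow, which its choice by likeness fixed. A gene with the same value in every library would score 0.60, the spread of Gabarapl1 about its own mean. Among the members Sqstm1 (0.52) and Bnip3 (0.55) were nearer than that, and the other 7 were farther, up to 0.78 for Ulk1.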

How the data were processed

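The deposited values are raw read counts per Ensembl gene in 2 tables of 6 libraries each (HFD with Chow, PCN with Vehicle), not normalised by the authors. Per the submitters' processing notes, HISAT2, HTSeq, DESeq2, GRCm38 and mm10 were named; their versions, the annotation release and the strand setting were not given in these sources. Libraries of a group were not duplicates (chi-square per gene 19.5 to 108), so each counted as 1 sample. The labels do not state that each library came from a separate mouse, so p-values measure the spread between these samples, which may be technical.

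Each comparison was fitted to its own 6 libraries with edgeR 4.0.16 (R 4.3.3; TMM, minimum count 10, robust quasi-likelihood F test, Benjamini-Hochberg adjusted p threshold 0.05 over all genes tested). Comparisons with HFD joined the tables on their 21976 shared genes. Fold changes are first-named minus second-named group. The steps were tested on simulated data. Alternatives were DESeq2 1.42.0, its size factors, other filters, all 12 libraries in 1 fit, and leaving out libraries. The members and lists were chosen with earlier results of these data known. All 10 members are reported. Of the wider list, genes are named where they passed in a comparison. Bnip3l, Tfeb and the 2 genes high in PCN 27 were singled out after their values were seen. The authors' own fold change columns were not used. Coordinates are those of the tables, 1-based, GRCm38.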

Additional observations from a re-analysis of the deposited data

How the results depend on the processing

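Under DESeq2, its size factors, both other filters and the fit of all 12 libraries, members kept their directions except Becn1 in HFD against Chow (-0.0004 with all 12 libraries). Counts of calls moved. In HFD against Chow the whole-table count of 0 became 44 with DESeq2, 237 with no expression filter and 0 to 219 with 1 library left out (219 without Chow 19, 7 without Chow 8). In PCN against Vehicle it was 21 with no filter. In Vehicle against HFD the 193 calls became 587 with DESeq2, 571 with no filter, 0 with all 12 libraries in 1 fit, and 0 to 1180 with 1 library left out (1180 without Vehicle 55, 0 without HFD 30 or Vehicle 23). There the members called, 1, became 4, 2 and 0, and 0 to 3 with 1 library left out, and the wider genes called, 3, became 6 with DESeq2, 0 with all 12 libraries and 0 to 9. In PCN against HFD the 373 calls became 811 with DESeq2, 672 with no filter and 0 to 634 with 1 library left out (634 without PCN 11, 192 without PCN 27, at most 3 without an HFD library). There the members called, 2, became 0 to 4, and the wider genes called, 2, became 4 with DESeq2, 4 with all 12 libraries and 0 to 3. With 1 library left out, uncalled differences changed sign in PCN against Vehicle for Gabarapl2 (-0.03 to 0.13), Sqstm1 (-0.11 to 0.63), Ulk1 (-0.58 to 0.05) and Becn1 (-0.15 to 0.06), and against HFD for Sqstm1 (-0.04 to 0.22 in Vehicle, -0.0004 to 0.78 in PCN). Differences given with no test also changed sign, for Gabarapl1 in Vehicle (-0.40 to 0.10) and PCN (-0.05 to 0.81) against HFD, and in HFD against Chow for Gabarapl2 (-0.15 to 0.10), Map1lc3b (-0.08 to 0.13), Sqstm1 (-0.21 to 0.04), Becn1 (-0.04 to 0.05) and Ctsl (-0.16 to 0.23). Without Chow 17 and Chow 19 together, which keeps only Chow 8 in that group, Ctsl was at -0.26 and Gabarapl2 at 0.004. The cause was not tested. No paired analysis was possible because the library numbers are unique to each library.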
